A study of Homo sapiens with 12 samples.

Results

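HCC70 is an established human breast cancer cell line that the submitters class as basal-like, the breast cancer type that resembles the basal cells of the mammary epithelium and usually lacks hormone receptors. The cells were grown in RPMI medium with serum and then kept for 4 h in 100 nM dexamethasone, a synthetic glucocorticoid, or in the same volume of the ethanol it was dissolved in. The response described here covers these 6 libraries, of 12 in the series, with 3 libraries of dexamethasone-treated cells and 3 of vehicle-treated cells. All 51838 genes of the deposited table were considered, and 25309 had enough counts to be tested. RNA was selected by its polyA tail, and the libraries were made with a transposase without marking the strand, so reads of a gene and of an overlapping partner cannot be told apart. HCC70 is 1 line, and since nothing in the labels says that replicates were cultured separately, a p-value here sets a difference against a spread between samples that may be technical only.

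Dexamethasone enters cells and binds the glucocorticoid receptor, the product of NR3C1, which then moves to the nucleus and changes transcription of genes near its binding sites. Its best known targets encode feedback and anti-inflammatory proteins, and in epithelial cells it also acts on ion transport, matrix turnover and differentiation. The purpose of the study was to find genes that this receptor controls in such cancer cells, and the comparison of dexamethasone with vehicle addresses it at an early time.

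The labels were checked first on FKBP5, a receptor chaperone induced by glucocorticoids in many cell types. It stood at 33.6, 34.6 and 32.6 CPM (counts scaled to library size, with TMM factors) in vehicle libraries 1 to 3 and at 206, 210 and 209 CPM in dexamethasone libraries 1 to 3. All treated libraries were above all vehicle libraries, as the labels imply. NR3C1 itself was at 57.1, 51.1 and 53.8 CPM in vehicle and 48.6, 51.3 and 49 CPM after dexamethasone, with overlapping groups and an adjusted p of 0.118 in edgeR's quasi-likelihood test. Of 30 canonical receptor targets, 24 were tested. By the calling rule given below 17 of these rose (70.8%, against 2.43% of all genes tested). Among them CDKN1C lost its call with the GC offset described below. RGS2, a regulator of G-protein signalling, was the 1 canonical gene called lower (4.17%, against 0.865%). It lost the call with that offset too, and without vehicle 1, vehicle 2, vehicle 3 or dexamethasone 3.

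All 14 basal epithelial markers, KRT5 among them, had a mean over 1 CPM across the 6 libraries, although TP63 was under 1 CPM after dexamethasone. The general epithelial markers were over that mean too (10 of 10), and so were 7 of 10 of the hormone receptor luminal list, which summed to 463 to 480 CPM in vehicle and 501 to 527 CPM after dexamethasone. GATA3 was at 55.1 to 68.2 CPM and FOXA1 at 48.2 to 57.8 CPM, while PGR and TFF3 of that list were at 0 in every library. The endothelial markers summed to 0.448 to 0.674 CPM in vehicle and 0.824 to 1.18 CPM after dexamethasone, with 0 of 5 over 1 CPM. Of 12 immune markers 3 were over 1 CPM and 2 were at 0, and their sums were 58.1 to 62.7 and 63.7 to 70.6 CPM. The mesenchymal sums overlapped, at 452 to 476 and 446 to 477 CPM, with 5 of 14 markers at 0.

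Total counts ran from 112660200 to 123218973 per library, at which 3 counts over a group, the limit that a count of 0 allows, correspond to 0.00831 to 0.00851 CPM. This limit covers counting error only. In vehicle 1, 1667, 1363, 733 and 665 genes had a count of 1, 2, 3 and 4. Whether both mates of a pair were counted was not tested. GC content moved with treatment. Across 15771 genes, Spearman's rho of the log2 fold change with GC content was 0.494, and it was -0.04 once a smooth trend in GC content and length had been removed from each library (the GC offset). Libraries also differed in the share of counts from 13 mitochondrially encoded genes, 3.48% to 3.83% in vehicle and 2.73% to 2.82% after dexamethasone. The labels give no batch that could be set beside these differences. Genes described below that lost their call with the GC offset are named as such.

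A gene was called when its adjusted p in edgeR was under 0.05 and its fitted change was at least 1.5-fold. By this rule 616 genes rose, 2.43% of those tested, and 219 fell, 0.865%, so that 3.3% were called in either direction. The adjusted p alone was passed by 3024 rises (11.9%) and 1804 falls (7.13%). Called rises had a median size of 1.73-fold and called falls one of 1.79-fold, while 174 rises and 72 falls were at least 2-fold. The 3 treated libraries did not overlap the 3 vehicle libraries in 613 of the 616 rises and in 213 of the 219 falls. Among all tested genes 18.3% had every treated library above every vehicle library and 17.1% had the reverse. The largest rises and falls named below were chosen among genes with such separate groups.

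Rises and falls differed in level. Of 2225 genes at a mean of 100 CPM or more, 82 were called higher and 0 lower by edgeR. In this class 924 genes were higher and 255 lower at an unadjusted p under 0.05, and DESeq2 and limma voom also called 0 falls. Between 10 and 100 CPM there were 156 rises and 15 falls among 7910 genes, and between 0.1 and 1 CPM 181 and 141 among 7805. GC content also went with the direction, since the quartile of genes richest in GC (56.5% to 85.5%) held 236 rises and 2 falls. With the GC offset this quartile held 79 rises and 8 falls. Over all tested genes that fit called 450 rises and 201 falls, among them 406 of the 616 and 175 of the 219, and 0 of the called genes changed sign. Scaling by library size alone gave 462 rises and 447 falls and moved the median log2 fold change of all genes from -0.02 to -0.10. Under that scaling TGFA, EDN1, LOX, SERPINA5, EHF, BCL6, SNAI2, ACSL1, SLC1A6, CX3CL1, FSTL3, GPRC5C, HES2, HK2, IRX5, KLF16, NFIC and SLC6A8, described below, lost their calls.

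**Figure D1:**
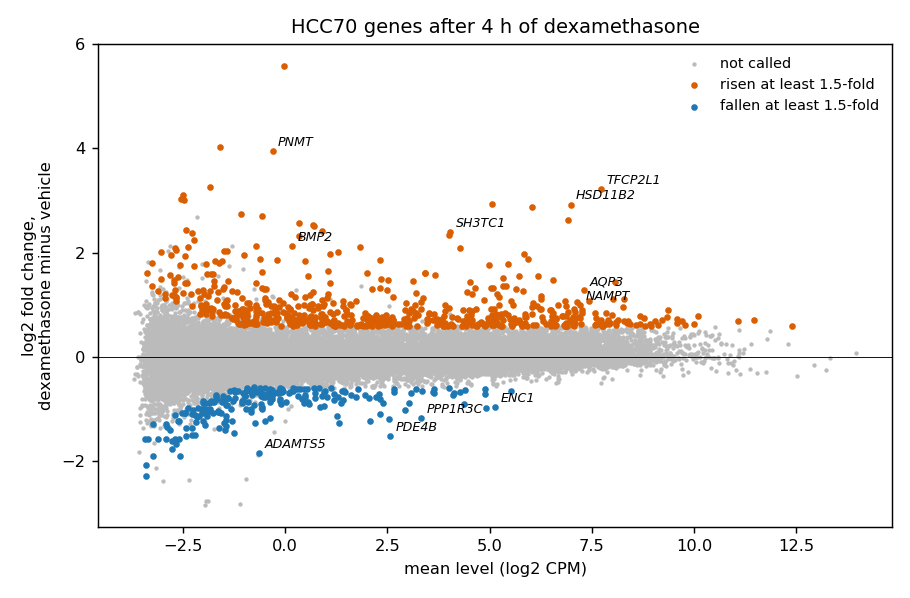
Fitted log2 fold change of each tested HCC70 gene (dexamethasone minus vehicle) against its mean level over the 6 libraries in log2 CPM, with the 616 called rises in orange and the 219 called falls in blue. TFCP2L1 and HSD11B2 combine large rises with levels over 100 CPM after treatment, and the called falls lie at lower levels.

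The promoter sequences of the called genes were searched for letters of the receptor's binding site, an inverted repeat of a short motif with a 3-base spacer. RefSeq promoters on GRCh38.p14, 250 bases before to 50 after the start site, were matched to 10393 tested genes, of which 243 were called rises and 77 called falls. The exact repeat, AGAACA then any 3 bases then TGTTCT, was in 0 of the 10393 on either strand. A looser form of it, which reads G, any base, ACA, any 3 bases, TGT, any base and C and covers every exact repeat, was in 21 of all promoters (0.202%), in 0 of the rises and in 1 of the falls. The single motif AGAACA, on either strand, was in 9.56% of all promoters, in 21 of the rises (8.64%) and in 13 of the falls (16.9%). These shares describe letters near the start site, and no test was made of them. Of 120 named genes, 81 had a promoter entry. Shown here are the only one with the looser repeat, EPHA4, and the 6 named genes with AGAACA before the start site, of which 4 rose and TP63 and SLC4A9 fell, each as the 250 bases 5′ to 3′ that end at the base before the start, with motif letters in capitals.
EPHA4 (chr2:221574203-221574452, minus strand): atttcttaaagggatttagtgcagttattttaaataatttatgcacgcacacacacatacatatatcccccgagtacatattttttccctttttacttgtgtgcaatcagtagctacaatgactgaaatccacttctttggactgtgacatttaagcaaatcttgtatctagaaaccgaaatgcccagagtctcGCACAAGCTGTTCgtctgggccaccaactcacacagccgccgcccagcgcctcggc
SERPINA3 (chr14:94612141-94612390, plus strand): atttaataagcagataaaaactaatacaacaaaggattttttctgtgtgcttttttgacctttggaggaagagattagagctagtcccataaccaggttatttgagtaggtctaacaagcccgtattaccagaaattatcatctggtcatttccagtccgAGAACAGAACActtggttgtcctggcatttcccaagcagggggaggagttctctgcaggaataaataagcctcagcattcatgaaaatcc
IL6R (chr1:154405093-154405342, plus strand): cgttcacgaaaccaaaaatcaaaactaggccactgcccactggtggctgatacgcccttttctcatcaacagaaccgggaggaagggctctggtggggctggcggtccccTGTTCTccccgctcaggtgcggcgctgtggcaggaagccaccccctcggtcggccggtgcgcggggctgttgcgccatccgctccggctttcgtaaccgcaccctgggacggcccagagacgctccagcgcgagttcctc
GCNT3 (chr15:59611533-59611782, plus strand): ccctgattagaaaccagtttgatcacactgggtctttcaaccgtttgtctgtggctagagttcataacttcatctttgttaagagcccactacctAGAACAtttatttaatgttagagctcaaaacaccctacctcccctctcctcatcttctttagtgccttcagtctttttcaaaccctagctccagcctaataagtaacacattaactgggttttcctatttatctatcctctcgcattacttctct
SGPP2 (chr2:222423738-222423987, plus strand): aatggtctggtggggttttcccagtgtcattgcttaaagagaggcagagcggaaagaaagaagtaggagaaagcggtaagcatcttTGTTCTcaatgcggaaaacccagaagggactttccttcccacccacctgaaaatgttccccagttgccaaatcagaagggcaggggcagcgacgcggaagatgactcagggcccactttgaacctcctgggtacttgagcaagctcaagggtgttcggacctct
TP63 (chr3:189631139-189631388, plus strand): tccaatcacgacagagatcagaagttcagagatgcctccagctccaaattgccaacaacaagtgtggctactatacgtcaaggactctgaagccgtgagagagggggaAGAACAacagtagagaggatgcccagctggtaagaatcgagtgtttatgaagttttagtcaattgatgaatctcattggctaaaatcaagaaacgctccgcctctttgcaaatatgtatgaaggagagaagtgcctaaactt
SLC4A9 (chr5:140359944-140360193, plus strand): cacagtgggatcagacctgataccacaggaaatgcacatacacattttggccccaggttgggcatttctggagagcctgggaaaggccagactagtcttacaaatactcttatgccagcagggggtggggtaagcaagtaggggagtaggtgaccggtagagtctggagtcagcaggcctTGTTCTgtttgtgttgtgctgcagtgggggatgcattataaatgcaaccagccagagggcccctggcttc
In SERPINA3 the capitals span overlapping copies of AGAACA. FKBP5 and PDE4D held the motif only at or after the start site and are not printed.

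Secreted growth factors were more often higher than lower. Of 48 tested members of that list, 6 rose (12.5%, against 2.43% of all genes tested) and 1 fell (2.08%, against 0.865%), and their median log2 fold change was 0.22, where the median over all genes was -0.02 (0.15 and -0.01 with the GC offset). BMP2, ARTN, EDN2, CTGF, EDN1 and TGFA rose, and each kept its call with the GC offset. BMP4, a bone morphogenetic protein like BMP2, was the fall, at a log2 fold change of -0.88 ± 0.24 (SE, edgeR adjusted p 0.017). It lost that call without vehicle 1, vehicle 2, dexamethasone 1 or dexamethasone 2. With library size only the list held 4 rises and 3 falls, and without dexamethasone 3 it held 2 falls.

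BMP2 encodes a ligand of the transforming growth factor beta family. Its level was 0.398, 0.431 and 0.411 CPM in the vehicle libraries and 1.95, 1.75 and 1.72 CPM in the treated ones. The groups did not overlap, and each was narrow. The rise was 4.37-fold, a log2 fold change of 2.13 ± 0.14 (SE, n = 3 per group, edgeR adjusted p 4.48e-08). ARTN encodes artemin, a ligand of the GDNF family that signals through RET. It rose from 12.7, 12.3 and 12.5 CPM to 35.5, 34 and 32 CPM, with every treated library far above every vehicle library. Its log2 fold change was 1.44 ± 0.06 (SE, adjusted p 6.03e-11), and 1.10 with the GC offset. EDN2 encodes endothelin 2, a peptide that acts on G-protein-coupled endothelin receptors. It was at 6.49, 6.97 and 6.02 CPM in vehicle and 13.2, 13.9 and 13.5 CPM after treatment, with every treated library above every vehicle library (2.08-fold, adjusted p 4.07e-08). The related EDN1 rose 1.57-fold (adjusted p 0.00163) from a mean of 1.9 CPM, a call lost without vehicle 3. The endothelin receptor gene EDNRA was called lower at 0.0886 against 0.209 CPM on average. The EDNRA call was lost without dexamethasone 1 or dexamethasone 3.

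CTGF, a matrix-associated protein and a common target of mechanical signalling, was at 0.294, 0.155 and 0.304 CPM in vehicle and 0.579, 0.564 and 0.664 CPM after dexamethasone. The groups were apart at these low levels, with a log2 fold change of 1.25 ± 0.24 (SE, adjusted p 0.00152). TGFA, a ligand of the epidermal growth factor receptor, moved from a mean of 24.3 ± 0.43 to 37.5 ± 0.443 CPM (SD, n = 3 each). It was close to the 1.5-fold floor, at 1.55-fold, with a spread between libraries far smaller than the change. The list of secreted inhibitors of growth factor signalling had 17 tested members, of which 2 rose (11.8%) and 0 fell in edgeR, DESeq2 or limma voom (3 lower at an unadjusted p under 0.05), with a median log2 fold change of 0.14. CHRD encodes chordin, an extracellular antagonist that binds BMP ligands. Its level went from 0.223, 0.0517 and 0.0987 CPM to 0.52, 0.538 and 0.298 CPM, a wide spread within both groups. They were separate all the same, and the log2 fold change was 1.83 ± 0.40 (SE, adjusted p 0.00569). FSTL3, a follistatin-like binder of activins, was called at 1.57-fold but not with the GC offset and not without dexamethasone 2.

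Genes for secreted proteases and their inhibitors held 8 rises and 3 falls among 35 tested (22.9% and 8.57%), the largest shares of both kinds among the secreted lists, and a median log2 fold change of 0.12. Inhibitors of serine proteases rose together with a plasminogen activator, and the falls were all of ADAMTS matrix proteases. PLAT, the tissue plasminogen activator, rose by 2.03-fold from a mean of 1.28 ± 0.203 to 2.6 ± 0.278 CPM (SD, adjusted p 5.64e-05). SERPINA3 encodes an acute-phase inhibitor of chymotrypsin-like proteases, and its promoter is among those printed above. Its level was 198, 205 and 194 CPM in vehicle and 414, 422 and 455 CPM after treatment, so the groups were far apart (2.16-fold, adjusted p 4.31e-10). SERPINA5, LOX, KLK8, MMP9 and ADAMTS15 rose by 1.52- to 1.63-fold, and MMP9 and ADAMTS15 lost the call with the GC offset. SERPINA5 lost it without vehicle 2, and KLK8 without vehicle 1, dexamethasone 1 or dexamethasone 2.

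ADAMTS5, a protease that cleaves aggrecan and other proteoglycans, had the largest fall in that list that held under each library left out. It stood at 1.09, 0.939 and 0.896 CPM in vehicle and at 0.205, 0.312 and 0.298 CPM after treatment. Each treated library was below each vehicle library. The log2 fold change was -1.84 ± 0.20 (SE, adjusted p 7.43e-06). ADAMTS1, of the same family, fell 1.91-fold from a mean of 2.49 ± 0.287 to 1.3 ± 0.114 CPM (SD, adjusted p 6.44e-05). ADAMTS3, which processes procollagen, was lower at levels of 0.0905 to 0.129 CPM in vehicle and 0.0255 to 0.0434 CPM after treatment, and its call was lost under 5 of the 6 omissions of a library, the exception being vehicle 3.

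Cytokine and chemokine genes had a median log2 fold change of 0.03, with 1 rise and 2 falls among 36 tested. These shares of 2.78% and 5.56% stand against 2.43% and 0.865% of all genes tested. By the adjusted p alone 3 of the 36 were higher and 6 lower, against 11.9% and 7.13% of all genes tested. IL33 encodes an alarmin cytokine kept in the nucleus of epithelial cells. It was at 7.99, 8.17 and 8.04 CPM in vehicle and 3.08, 3.93 and 3.56 CPM after dexamethasone, with every treated library lower (2.29-fold, adjusted p 1.58e-07). IL8, a chemokine that attracts neutrophils, went from 2.04, 1.89 and 2.28 CPM to 1.07, 1.1 and 1.44 CPM. Its groups did not overlap (1.72-fold lower, adjusted p 0.000798). The falls in this list numbered 4 without vehicle 3, without dexamethasone 2, without the low-count filter or with library size only. The rises numbered 2 without vehicle 2 or vehicle 3 and 0 without vehicle 1, with upper-quartile scaling or with library size only. CX3CL1, a membrane-anchored chemokine, sat at the threshold at 1.51-fold and was not called with the GC offset or without vehicle 1, vehicle 2 or dexamethasone 1. Of 22 acute phase, complement and carrier genes 1 was called, as a rise (4.55%, against 2.43% of all genes tested). It was SAA2, a serum amyloid gene, which went from 0.386 ± 0.0606 to 0.628 ± 0.0677 CPM (SD). Of its exon bases 14.3% overlap another gene, whose reads cannot be told apart without strand. That call was lost without vehicle 1, vehicle 2 or dexamethasone 3, while the list held 2 rises without vehicle 3 and 1 fall without dexamethasone 1.

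**Figure D2:**
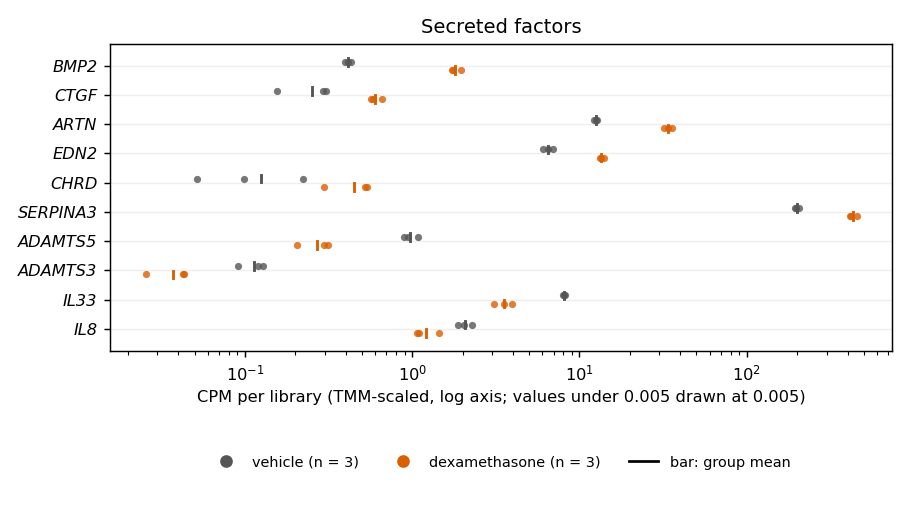
CPM per library on a log axis for 10 genes of secreted proteins named in the text, with vehicle libraries in grey, dexamethasone libraries in orange and bars at the group means (n = 3 each). BMP2 shows the widest gap among the rises and ADAMTS5 among the falls, and the groups of each gene are separate.

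Among transcription factors the calls were spread over many families. TFCP2L1, a CP2-family factor of epithelial ducts and of pluripotent cells, had the largest change among the factor lists. It was at 41.6, 42 and 39.9 CPM in vehicle and 394, 374 and 382 CPM after dexamethasone. All treated libraries were at the top of the range and the groups were far apart. In its list of ETS, grainyhead and CP2 factors, 3 of 25 rose (12%) and 1 fell (4%), but the median log2 fold change was -0.01. ETS2 and EHF, both ETS factors of epithelia, were the other rises, from a mean of 24.5 ± 1.58 to 42.6 ± 1.3 CPM and from 55.2 ± 2.31 to 84.6 ± 2.64 CPM (SD). ETV5, an ETS factor of the PEA3 group that responds to ERK signalling, was lower at 0.137 against 0.323 CPM on average. It lost the call without vehicle 1, and the list held 2 falls without vehicle 3 or without dexamethasone 1.

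Of 31 AP-1 and ATF factors, 5 rose (16.1%) and 0 fell by the 1.5-fold rule in edgeR, DESeq2 or limma voom, with 6 lower at an unadjusted p under 0.05. FOS, the immediate early partner of JUN in AP-1, was at 27.8, 27.7 and 25.1 CPM and then 84.7, 75.3 and 78 CPM. Every treated library was well above every vehicle library (2.95-fold, adjusted p 3.33e-11). JUN itself rose 1.72-fold to a mean of 117 ± 7.36 CPM (SD, adjusted p 1.1e-07), and FOSL2, a Fos-related subunit, rose 1.73-fold to 141 ± 3.45 CPM (SD). The median log2 fold change of the list was 0.02. MAFF, a small MAF protein without an activation domain, was called at 1.61-fold but not with the GC offset.

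In the Krüppel-like and Sp list 3 of 17 rose (17.6%) and 0 fell in edgeR, DESeq2 or limma voom (2 lower at an unadjusted p under 0.05), with a median log2 fold change of 0.16. SP6, an Sp factor of tooth and skin epithelium, was at 25.8, 30 and 30.6 CPM in vehicle and 74, 72 and 66.6 CPM after dexamethasone. These groups did not overlap, with a log2 fold change of 1.3 ± 0.06 (SE, adjusted p 4.06e-09) and 1.08 with the GC offset. KLF6, an early response factor, rose 1.8-fold from 164 ± 5.91 to 295 ± 5.68 CPM (SD). KLF16 was called at 1.55-fold and lost the call with the GC offset, where its log2 fold change was 0.29.

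The few called basic helix-loop-helix genes moved in both directions. MYC and HES7 rose while ID2 and ID4, inhibitors that block the binding of other helix-loop-helix proteins to DNA, fell. With HES2, which lost its call with the GC offset, the list held 3 rises (8.82%) and 2 falls (5.88%) of 34, and its median log2 fold change was 0.11 (-0.02 with the GC offset). MYC was at 45.2, 52.8 and 46.8 CPM in vehicle and 98.9, 95.5 and 92.3 CPM after treatment, and so was raised in all 3 treated libraries by nearly equal amounts (1.98-fold, adjusted p 9.87e-09). ID4 fell from 41.5, 40.3 and 37.4 CPM to 20.6, 19.5 and 20.3 CPM. The groups were clearly apart, with a log2 fold change of -0.98 ± 0.05 (SE, adjusted p 4.06e-09). ID2 went from 23.2, 22.2 and 19.4 CPM to 13.8, 13.5 and 11.9 CPM, 1.65-fold lower (adjusted p 8.42e-06).

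Homeobox genes also divided, with IRX3, IRX4 and IRX5 called higher and DLX1 and DLX2 lower. Of 55 forkhead, SOX and homeobox genes tested, 3 rose (5.45%) and 2 fell (3.64%; 4 with library size only), with a median log2 fold change of 0.01. The Iroquois factor IRX3 was at 105, 113 and 112 CPM in vehicle and 230, 239 and 230 CPM after dexamethasone. Its groups were separate at 2.11-fold (adjusted p 2.77e-10). IRX4 rose at a low level, from a mean of 0.23 to 0.492 CPM, and IRX5 was called at 1.57-fold but not with the GC offset. DLX2, a distal-less factor, fell from 2.96, 3.44 and 3.4 CPM to 1.59, 1.47 and 1.44 CPM (2.18-fold, adjusted p 2.63e-06). The neighbouring family member DLX1 fell 1.66-fold, from a mean of 4.78 ± 0.33 to 2.88 ± 0.178 CPM (SD, adjusted p 4.93e-05). All 3 treated libraries were below all 3 vehicle libraries for both.

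The list of other DNA-binding regulators held 6 rises (9.09%; 3 with library size only) and 2 falls (3.03%) of 66, with a median log2 fold change of 0.05. BNC1, a zinc finger protein of basal keratinocytes, rose 3.06-fold, from 5.3, 4.69 and 5.78 CPM to 16, 15.7 and 16.7 CPM. The treated libraries lay close together and apart from vehicle (log2 1.61 ± 0.08 SE, adjusted p 5.7e-10). BCL6, a transcriptional repressor, reached 115 ± 4.55 CPM from 72.8 ± 0.83 CPM (SD). SNAI2 and ZEB1, repressors known from epithelial to mesenchymal change, rose 1.55-fold and 1.82-fold, ZEB1 at no more than 0.749 CPM in any library. CITED4 and NFIC were called too but lost the call with the GC offset, NFIC also without vehicle 1 or dexamethasone 1. TP63, the p53 relative that maintains basal epithelium, was at 1.51, 1.4 and 1.01 CPM in vehicle and 0.784, 0.746 and 0.885 CPM after treatment, and its call was lost without vehicle 1. TBX3, a T-box repressor, fell 1.6-fold from 1.31 ± 0.0892 to 0.817 ± 0.114 CPM (SD, adjusted p 0.00354), a call lost without dexamethasone 1.

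Nuclear receptors and the remaining clock genes gave 0 calls at 1.5-fold in edgeR, DESeq2 or limma voom, among 28 and 16 tested. The clock gene PER1, kept in the canonical list instead, rose from a mean of 15.9 to 117 CPM (7.32-fold, edgeR adjusted p 7.72e-13). With library size only edgeR called 2 nuclear receptor falls and 1 clock fall, and without the low-count filter 1 nuclear receptor fall. At an unadjusted p under 0.05, 9 and 2 were higher and 7 and 4 lower. By the adjusted p alone 9 of 28 nuclear receptor genes were higher and 6 lower, both above the 11.9% and 7.13% of all genes tested. For the clock list 1 of 16 was higher, below that share of rises, and 2 were lower. The median log2 fold changes of the nuclear receptor and clock lists were -0.03 and -0.04. RXRA, the common partner of many nuclear receptors, was at 163, 179 and 201 CPM in vehicle and 250, 238 and 237 CPM after treatment. Its groups were separate and the change was 1.33-fold (adjusted p 0.000422). PER3, a period gene of the clock, had overlapping groups and an adjusted p of 0.606.

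**Figure D3:**
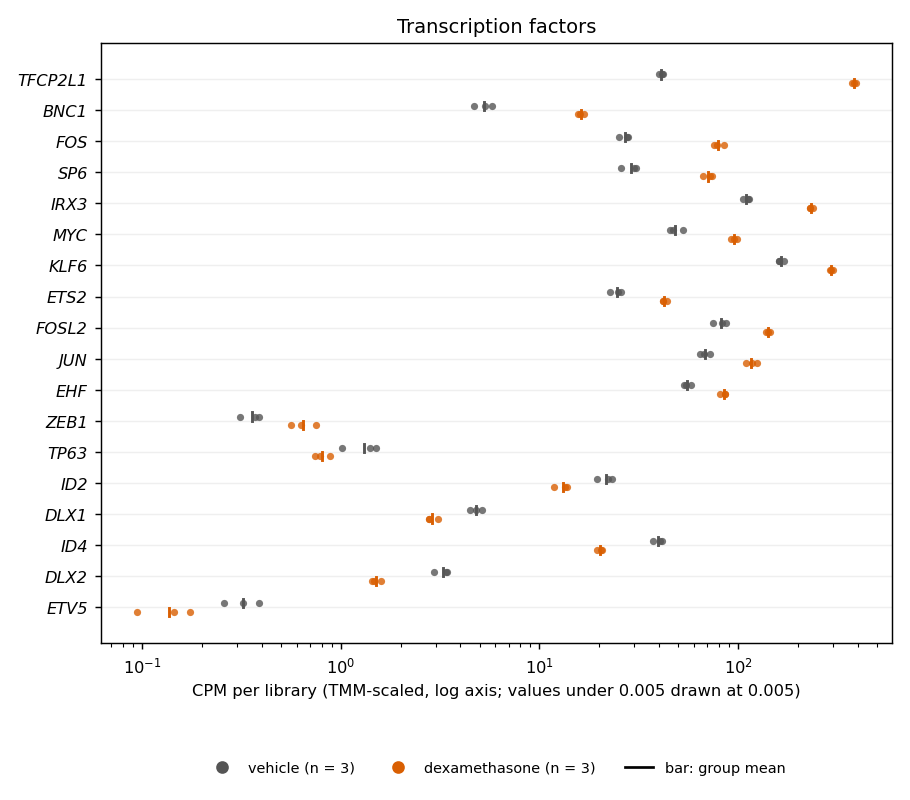
CPM per library on a log axis for 18 transcription factor genes, vehicle in grey and dexamethasone in orange, with bars at group means (n = 3 each). TFCP2L1 shows the widest gap among the rises, and ID4, ID2, DLX1, DLX2, TP63 and ETV5 stand lower after treatment.

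Of 443 tested genes in 8 transporter and channel families, 18 rose (4.06%) and 6 fell (1.35%), with a median log2 fold change of 0.04 (-0.002 with the GC offset). The rises numbered 29 without vehicle 3, and the falls 3 without vehicle 1 or without dexamethasone 2 and 11 with library size only. Potassium channel genes held 7 of the rises, among 44 tested (15.9%), and 2 of the falls (4.55%), with a median of 0.01. The number of potassium channel rises was also 7 with the GC offset.

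KCNJ16, an inward rectifier of transporting epithelia, rose from near the limit of detection. It had 0.0636, 0.0431 and 0 CPM in vehicle (13 counts in all) and 0.614, 0.694 and 0.502 CPM after treatment (211 counts), a log2 fold change of 4.04 ± 0.44 (SE, adjusted p 2.06e-05) that rests on few vehicle counts. KCNJ2, another inward rectifier, rose from 1.28, 1.06 and 1.44 CPM to 3.08, 2.55 and 2.65 CPM. Both genes had separate groups. KCNJ11, the pore subunit of an ATP-sensitive channel, and KCNIP3, a calcium-binding channel partner, rose 2.05-fold and 1.9-fold. KCNK5, an acid-sensitive background channel, rose 1.7-fold to 49 ± 1.59 CPM (SD). On the other side KCNJ10, often paired with KCNJ16 in one channel, was lower after treatment, from 0.231, 0.276 and 0.313 CPM to 0.102, 0.147 and 0.0681 CPM (2.56-fold, adjusted p 0.00826). KCNK3 was called lower as well, but only when all libraries were kept or when vehicle 2 or vehicle 3 was left out.

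Subunits of the epithelial sodium channel, through which airway, kidney and gland epithelia take up sodium, rose. SCNN1G, the gamma subunit, was at 3.09, 2.52 and 3.41 CPM in vehicle and 8.22, 8.37 and 8.61 CPM after dexamethasone. Treated libraries were nearly equal and above every vehicle library (2.79-fold, adjusted p 4.21e-08). SCNN1A, the alpha subunit and a member of the canonical list, rose 1.67-fold to 241 ± 13.1 CPM (SD). Of 9 sodium channel genes tested these were the 2 rises (22.2%, against 2.43% of all genes tested). SCN3B was the 1 fall (11.1%, against 0.865%), at 0.0683 CPM after treatment against 0.182 CPM in vehicle on average. The SCN3B call was lost without vehicle 1, vehicle 2, vehicle 3 or dexamethasone 2. AQP3, a channel for water and glycerol, was at 89.2, 91.5 and 99.2 CPM in vehicle and 230, 221 and 227 CPM after treatment. Its groups did not overlap, and it was the 1 riser of 5 aquaporins (2.42-fold, adjusted p 8.72e-11). Without vehicle 3 a further aquaporin gene was called.

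Solute carriers as a family were near the background, with 7 rises (2.62%) and 2 falls (0.749%) of 267 tested and a median log2 fold change of 0.06. Without vehicle 3 there were 14 rises, and with library size only 5 falls. SLCO2A1, which takes up prostaglandins, rose most, from 2.21, 2.51 and 1.74 CPM to 7.73, 7.3 and 8.4 CPM. The treated libraries were all over 7 CPM and the vehicle libraries under 3 (3.63-fold, adjusted p 3.15e-08). SLC7A8, a light subunit for neutral amino acid exchange, went from 5.89, 5.75 and 5.86 CPM to 10.4, 10.3 and 10.9 CPM. Both groups were narrow and apart (1.81-fold, adjusted p 2.95e-07). SLC25A18, a mitochondrial glutamate carrier, rose 2.54-fold from a mean of 0.193 CPM, but 11% of its exon bases overlap another gene. SLC30A2, a zinc transporter of secretory cells, rose 1.75-fold to 3.85 ± 0.276 CPM (SD). SLCO4A1, SLC6A8 and the fall of SLC26A7 lost their calls with the GC offset, SLC1A6 lost its call without vehicle 1, and SLC26A7 also without vehicle 3. SLC6A8 lost it without vehicle 1 or dexamethasone 3 too. The fall of SLC4A9, at an adjusted p of 0.0481, was lost whichever library was left out. ATP10A and ABCC2, the only called members of the ATPase and ABC families, each lost the call without vehicle 1 and without dexamethasone 3, and ABCC2 also without vehicle 2 or dexamethasone 1. Of the chloride and TRP channel genes, 0 of 21 and 0 of 16 were called in edgeR, DESeq2 or limma voom. In edgeR 3.3% of all genes tested were called. At an unadjusted p under 0.05, 6 and 2 were higher and 2 and 3 lower. In edgeR 1 TRP channel gene was called lower with library size only, without the low-count filter, with the replicate block or without dexamethasone 1. The ATPase list held 3 rises without vehicle 3, 2 without dexamethasone 1 or with DESeq2 size factors, and 0 with the replicate block or without vehicle 1, and it held 1 fall with library size only.

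**Figure D4:**
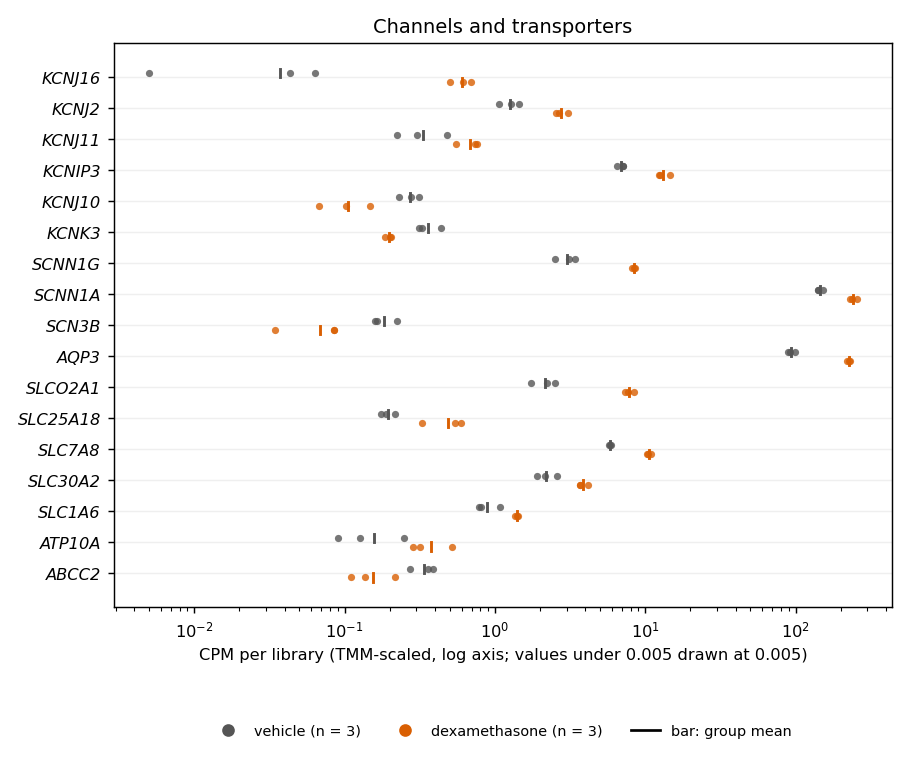
CPM per library on a log axis for 17 channel and transporter genes, with vehicle in grey, dexamethasone in orange and bars at group means (n = 3 each), and values of 0 drawn at 0.005. KCNJ16 rose from near 0, while AQP3 and SCNN1A rose from levels over 80 CPM.

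Receptor genes changed in both directions. Of 49 genes of G-protein signalling, 4 rose (8.16%) and 3 fell (6.12%), with a median log2 fold change of 0.13 (-0.01 with the GC offset). PTGER2, a prostaglandin E receptor that raises cyclic AMP, was at 3.94, 4.11 and 3.64 CPM in vehicle and 8.85, 8.79 and 8.27 CPM after dexamethasone. Each group spanned under 1 CPM and they did not overlap (2.22-fold, adjusted p 5.42e-08). ADRA1B, an adrenergic receptor gene, rose 3.62-fold at a low level, from 0.326, 0.267 and 0.518 CPM to 1.35, 1.21 and 1.48 CPM. Its groups did not overlap. PNMT, which makes adrenaline, a hormone of such receptors, rose from 0.00795, 0.103 and 0.181 CPM to 1.35, 1.75 and 1.41 CPM. The vehicle values ran from 1 count in vehicle 1 to the highest in vehicle 3, and the adjusted p was 0.000693. S1PR1, a receptor for sphingosine phosphate, fell 1.63-fold from 6.04 ± 0.61 to 3.71 ± 0.436 CPM (SD, adjusted p 0.000169), and GPRC5C lost its rise with the GC offset. IL6R, the interleukin 6 receptor, rose from 1.43, 1.33 and 1.22 CPM to 5.89, 5.53 and 5.85 CPM. The groups were far apart (4.34-fold, adjusted p 5.38e-10).

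Among receptor tyrosine kinases 1 gene rose and 2 fell of 32 tested (3.12% and 6.25%), with a median log2 fold change of 0.17 (0.05 with the GC offset). The rises numbered 2 without vehicle 1, vehicle 3, dexamethasone 3 or the low-count filter and 3 without vehicle 2. By the adjusted p alone 15 of the 32 were higher and 4 lower, against 11.9% and 7.13% of all genes tested. The ephrin receptor EPHA2 rose to 180, 169 and 181 CPM from 92.6, 92.2 and 108 CPM. EPHA4, of the same family, fell from 6.54, 6.29 and 6.14 CPM to 3.6, 3.6 and 3.57 CPM. Both genes had separate groups, and the 3 treated values of EPHA4 were nearly equal (log2 -0.82 ± 0.08 SE, adjusted p 2.72e-06). PDGFRA, a platelet-derived growth factor receptor, was at 5.7, 5.68 and 6.27 CPM and then 2.6, 1.92 and 3 CPM. Its treated libraries varied more than its vehicle libraries and all lay below them. IRS2, an adaptor of the insulin receptor, rose from 0.859, 1.03 and 1.12 CPM to 3.49, 3.27 and 2.68 CPM (3.14-fold, adjusted p 4.41e-07).

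Few core metabolic genes were called at 1.5-fold, and the metabolic calls were single genes rather than lists. Glycolysis held 1 rise of 26 tested (3.85%), glycogen genes 1 fall of 26 (3.85%), and lipid storage and oxidation 2 rises of 41 (4.88%). The lists of pyruvate handling (32 tested) and of fatty acid and sterol synthesis (30 tested) had 0 calls in edgeR, DESeq2 or limma voom. The pyruvate list leaves out PDK4, a pyruvate dehydrogenase kinase gene kept in the canonical list, which was called higher. By the adjusted p alone the pyruvate list held 1 rise and 2 falls of 32, below the 11.9% and 7.13% of all genes tested. The synthesis list held 6 rises and 6 falls of 30, above those shares. At an unadjusted p under 0.05 the pyruvate list held 3 rises and 9 falls, and the synthesis list 10 and 10. Without vehicle 3 these 2 lists had 1 and 2 rises. The pyruvate list also had 1 without dexamethasone 2 or dexamethasone 3, and the synthesis list 1 without the low-count filter. Glycogen genes had 1 rise without vehicle 3 or without that filter. Steroid, retinoid and prostaglandin enzymes had 1 rise of 52 or 1.92% (2 rises without vehicle 2, vehicle 3 or dexamethasone 1, and 1 fall without dexamethasone 1). Amino acid, polyamine and NAD enzymes had 1 of 49 or 2.04% (2 without vehicle 3). Sphingolipid and phospholipid enzymes had 1 of 43 or 2.33% (and 1 fall with library size only). These shares were near the 2.43% of all genes tested that rose. Median log2 fold changes of these lists lay between -0.04 and 0.10.

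HSD11B2, the enzyme that inactivates cortisol to cortisone, was the steroid enzyme that rose. Its level was 28, 30.4 and 30.1 CPM in vehicle and 229, 226 and 216 CPM after treatment, with no overlap. NAMPT, the rate-limiting enzyme of the NAD salvage pathway, was at 101, 99.5 and 98.8 CPM and then 194, 201 and 201 CPM. Both groups were narrow (log2 1.00 ± 0.04 SE, adjusted p 3.14e-10). LPIN1, which encodes a phosphatidate phosphatase of lipid synthesis that also acts as a coactivator, rose from 47.2, 46.6 and 49.2 CPM to 88, 85.1 and 81.3 CPM. ACSL1, whose product activates long-chain fatty acids, rose from 187, 172 and 184 CPM to 281, 280 and 282 CPM. In both genes the treated libraries were all higher, by 1.78-fold (adjusted p 7.59e-09) and 1.55-fold (adjusted p 1.81e-07). SGPP2, a phosphatase for sphingosine phosphate, rose 2.46-fold, from 0.501, 0.413 and 0.313 CPM to 1.08, 0.789 and 1.16 CPM. HK2, a hexokinase that starts glycolysis, was at 23.3, 22.3 and 23.3 CPM and then 35.7, 35.2 and 34.7 CPM. Its groups were well apart, but at 1.53-fold it was just past the floor and at 0.57 on the log2 scale with the GC offset just short of it. FASN, the fatty acid synthase, was at 1607, 1648 and 2128 CPM in vehicle and 2862, 2440 and 2430 CPM after treatment. It passed the adjusted p (0.0165) at 1.44-fold, and with the GC offset its log2 fold change was 0.16 with an adjusted p of 0.0848. GCNT3, which branches the sugar chains of mucins, rose from 0.0875, 0.146 and 0.123 CPM to 0.801, 0.763 and 0.825 CPM (6.67-fold, adjusted p 5.1e-07).

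PPP1R3C, a scaffold that brings protein phosphatase 1 to glycogen, was the fall among the glycogen genes. It was at 14.1, 12.9 and 14.5 CPM in vehicle and 6.66, 6.16 and 5.61 CPM after dexamethasone, with the groups far apart (2.25-fold, adjusted p 3.55e-08). The cyclic nucleotide phosphodiesterases, which break down cyclic AMP and cyclic GMP, had 2 falls of 15 tested (13.3%) and 0 rises (0 also at an unadjusted p under 0.05 and in DESeq2 or limma voom), with a median log2 fold change of -0.19. The fallen genes encode cyclic AMP-specific enzymes. PDE4B was at 9.42, 7.59 and 9.1 CPM in vehicle and 3.05, 3.04 and 3 CPM after treatment, and PDE4D went from 27.5, 24.6 and 29.2 CPM to 13.7, 14.8 and 14.7 CPM. Every treated library was below every vehicle library in both, at 2.87-fold (adjusted p 1.17e-08) and 1.88-fold (adjusted p 1.2e-07).

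Other falls at a mean of at least 1 log2 CPM included genes of adhesion and of the cell surface. LRRC4C, a leucine-rich repeat adhesion protein that binds netrin G1, fell from 3.74, 3.13 and 3.57 CPM to 1.36, 1.39 and 1.6 CPM (2.4-fold, adjusted p 1.17e-06). AMIGO2, an adhesion protein with leucine-rich repeats and an immunoglobulin domain, fell from 6.56, 7.33 and 6.35 CPM to 3.31, 3.02 and 3.14 CPM (2.13-fold, adjusted p 3.34e-07). Both genes showed 3 treated libraries below the lowest vehicle library, which was a condition for their choice. ENC1, a kelch-repeat actin-binding protein, stood at 47.3, 45.3 and 46.7 CPM and then 24.6, 24.1 and 22.5 CPM (1.96-fold, adjusted p 2e-09). RASGEF1B, an exchange factor for small GTPases, fell 1.73-fold from 5.19 ± 0.131 to 3 ± 0.18 CPM (SD). The planar polarity genes PRICKLE1 and PRICKLE2 were lower by 1.7-fold and 1.83-fold, but 23.6% and 25.2% of their exon bases overlap another gene, and so do 26.7% for GPRC5B, 29.3% for TRIM6 and 13.7% for FAM113B. Without strand the reads of such pairs cannot be told apart. Lower down, ACVR1C, a type I receptor for nodal and activin, fell from 0.501, 0.586 and 0.551 CPM to 0.187, 0.304 and 0.204 CPM. RASSF10 and P2RY10 fell 2.34-fold and 2.48-fold.

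**Figure D5:**
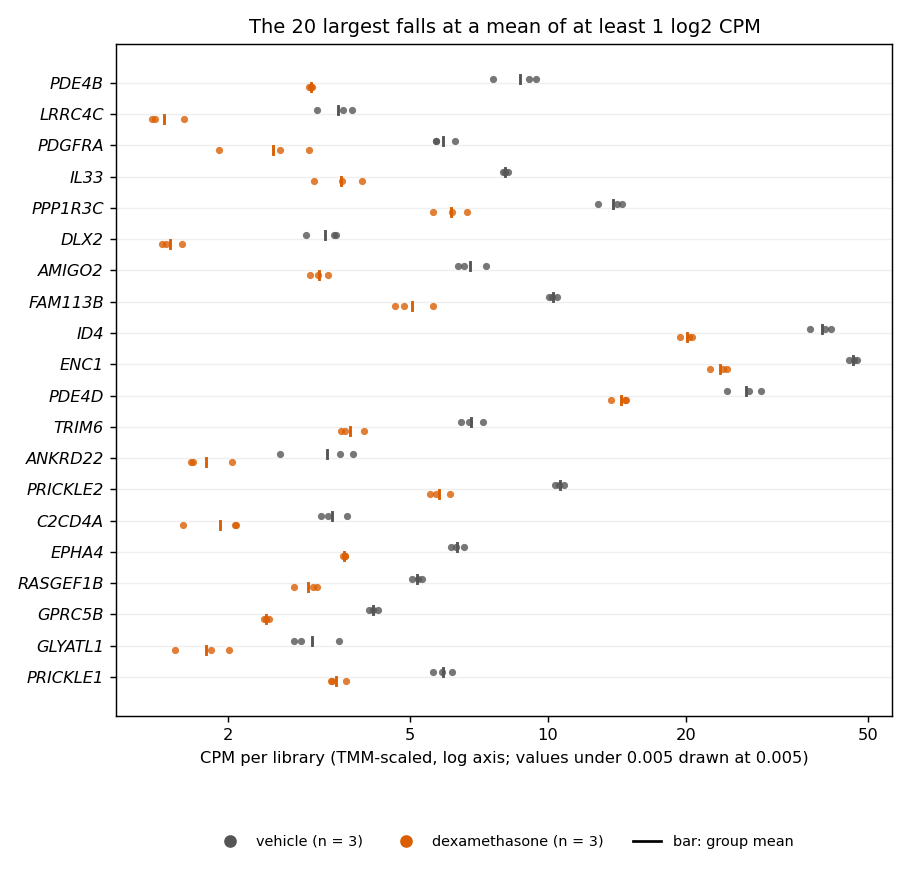
CPM per library on a log axis for the 20 largest called falls at a mean of at least 1 log2 CPM, ordered by fold, with vehicle in grey, dexamethasone in orange and bars at group means (n = 3 each). The genes were chosen on the condition that the 3 dexamethasone libraries lie below the 3 vehicle libraries. ENC1, ID4 and PDE4D are the genes at the highest levels.

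Interferon-stimulated genes, a group induced by interferon signalling and active against viruses, were lower as a list by small amounts. Of 38 tested, 0 were higher and 19 were lower by edgeR's adjusted p alone (0 and 24 at an unadjusted p under 0.05), against 11.9% and 7.13% of all genes tested, and the median log2 fold change was -0.19. Of these, 2 passed the 1.5-fold floor. IFIT1 was at 7.65, 8.15 and 7.1 CPM in vehicle and 4.97, 5.39 and 4.62 CPM after dexamethasone, and RSAD2 at 12.4, 10.5 and 10.2 CPM and then 7.64, 6.97 and 6.95 CPM. The groups of both were separate, at 1.53-fold each. With the GC offset both stayed past the adjusted p and dropped below the floor, IFIT1 also lost its call without vehicle 2 or dexamethasone 3, and RSAD2 lost it without vehicle 1. The list's median with the offset was -0.16.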

How the data were processed

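RNA from HCC70 cells was sequenced in 6 libraries, 3 of dexamethasone-treated and 3 of vehicle-treated cells, grouped by the labels. The authors deposited whole-number read counts per gene, not scaled between libraries. The build was hg19 and the tools listed are bedtools, Cufflinks 1.3.0 and TopHat 1.4.1, per the submitters' processing notes; which of them made the counts is not given in the sources used here. Of the 51838 genes, 15170 had no count in these libraries.

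Counts were filtered (filterByExpr, minimum count 10), scaled by TMM and fitted with edgeR 4.0.16 in R 4.3.3 (robust quasi-likelihood fit, 4 residual degrees of freedom, two-sided test). P-values were adjusted by the Benjamini-Hochberg method across the 25309 tested genes. The standard error is the log2 fold change divided by the square root of F. A GC and length offset per library used a spline with 5 degrees of freedom; GC content and exon overlap came from GENCODE transcripts on GRCh38, matched by gene ID (90.1% of tested genes), so no hg19 coordinates are given.

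Members and lists were chosen with earlier results of these data known. The text names, among called genes with a unique symbol and separate groups, the 15 largest rises and 20 largest falls at a mean of at least 1 log2 CPM, 6 of each direction from -2 to 1, up to 4 called members of a list and up to 6 per direction of a transporter family, and FKBP5, TSC22D3, PER1, SGK1 and NR3C1; some are not reported here, and further called members were named after their values were seen. Pairs of replicates differed by more than sampling noise (chi-square per degree of freedom 6.85 to 28.4). The scripts were tested on simulated data. Alternatives were other scalings and filters, DESeq2 1.42.0, limma 3.58.1 (voom), glmTreat, no robust estimation, a replicate block, the GC offset and each library left out.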

Additional observations from a re-analysis of the deposited data

How the results depend on the processing

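The 835 calls became 307 with a filter of 5 CPM in 3 libraries, 170 when glmTreat tested against 1.5-fold and 246 with a 2-fold floor. Rises (616) became 275 with the strict filter and 154 with glmTreat. Falls (219) became 447 with scaling by library size only, 32 with the strict filter, 127 with the DESeq2 Wald test and 16 with glmTreat. The strict filter tests fewer genes; the cause of the other shifts was not tested. Genes past the adjusted p alone (4828) became 7298 with library size only. Calls over the gene lists (75) became 46 with the strict filter and 32 with glmTreat. With each library left out in turn, calls ran from 653 to 1106, the lowest without vehicle 1 and the highest without vehicle 3. Rises ran from 490 to 859, falls from 163 to 247, genes past the adjusted p from 3363 to 6254 and list calls from 70 to 95.

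Deviations of same-numbered libraries correlated at -0.28, 0.16 and -0.02, and those of differently numbered libraries at -0.254 to 0.255. The deviations were centred within each group, so these values cannot decide whether the numbers pair the samples. With the replicate block 795 genes were called (592 rises and 203 falls) and 4131 passed the adjusted p. The block with the GC offset gave 631 calls.

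Of the named genes that were called, 45 kept call and direction under all 18 alternatives, and 15 kept them under each alternative that gave a value but had no value under some. The other 46 were not called under some alternative. The strict filter left 47 called named genes untested, and the DESeq2 test gave no adjusted p for 23. Among the uncalled genes 2 changed sign: NR2F6 from 0.33 (log2 fold change) to -0.0351 with the GC offset and to -0.0343 with that offset and the block, and SDHA from 0.04 to -0.0431 with library size only. The cause was not tested.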
